A study of Homo sapiens with 12 samples.

Results

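The 39 genes examined here act in homologous recombination, in the Fanconi anemia pathway of crosslink repair and in the replication checkpoint, with 2 mismatch repair genes beside them. They were taken from a list of gene symbols which, like the other lists used here, was chosen with earlier results of these data known. The part of that choice in the shares given below was not tested. All 39 were among the 58302 genes of the count matrix and among the 17849 that had enough reads to be tested. RNA of NCI-H520, a human lung squamous cell carcinoma line, was sequenced in 12 libraries, 3 for each of 4 groups. OV-L1-FGGY DMSO are cells that stably carry the chimeric transcript of the retrotransposon L1 and FGGY from a lentivirus, given 0.2% DMSO as vehicle. OV-L1-FGGY ML355 are the same cells with 10 µM of the 12-LOX inhibitor ML355. The label of the next group, called NVR-labelled here, names these cells with 450 µM of NVR, a reverse transcriptase inhibitor. The control had 0.2% DMSO alone, and since its label names no vector, it was read as the empty vector line. The ML355 and NVR-labelled groups were also in 0.2% DMSO. The medium was replaced 5 h after seeding in all 4 groups, and the length of treatment is not given in the sources used here. The labels do not say whether the 3 libraries of a group came from separate cultures, so p-values measure only the spread between these libraries.

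Homologous recombination repairs a broken chromosome by copying the intact sister. The ends are first resected to single strands by MRE11, RAD50, NBN, RBBP8, EXO1 and BLM. BRCA1, BRCA2 and PALB2 then load the strand exchange recombinase, whose filaments are handled by its paralogs RAD51C, XRCC2 and XRCC3 and by RAD54L and RAD54B. The Fanconi anemia genes encode a core complex that, with the conjugating enzyme UBE2T, attaches ubiquitin to FANCD2 and FANCI at crosslinked DNA. ATR, with TOPBP1, CLSPN and CHEK1, slows the cell cycle when replication forks stall, and ATM and CHEK2 do so at breaks. Many of these genes are transcribed mainly in cells that replicate their DNA, and they are studied in lung cancer because tumors that lose them respond to crosslinking drugs.

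Total counts per library ran from 16242082 to 27004768. FGGY, the gene carried by the construct, had 4782, 5206 and 6196 counts in OV-L1-FGGY DMSO and 7346, 6290 and 5080 with ML355. It had 82, 103 and 88 counts in the NVR-labelled libraries and 91, 87 and 78 in the control. The NVR-labelled libraries go against the OV-L1-FGGY in their label, and each of their comparisons is given against the control as well as against OV-L1-FGGY DMSO. Of 8 squamous markers 4 were tested, and KRT5, KRT6A, DSG3 and PKP1 were at or near 0 in all 4 groups. Of the 4 tested, 2 were lower and 2 higher in OV-L1-FGGY DMSO than in the control, with log2 fold changes from -11.4 to 6.07. All 8, with TP63 and KRT14 among them, summed to 175 to 202 CPM in OV-L1-FGGY DMSO and 301 to 385 CPM with ML355. The sums were 10.4 to 19.3 CPM in the NVR-labelled libraries and 21.1 to 25.9 CPM in the control. TRIM29 averaged 183 and 348 CPM (counts scaled to an equal library size) in the OV-L1-FGGY groups and 1.69 and 4.09 CPM in the NVR-labelled libraries and the control, while SOX2 averaged 10.9 and 16.02 CPM in the last pair and had no count in the first. The 12 markers of other cell types summed to 278 to 288 CPM in OV-L1-FGGY DMSO, 104 to 110.5 CPM with ML355, 22.9 to 25.6 CPM in the NVR-labelled libraries and 20.8 to 27.6 CPM in the control, with most of the first sum from the fibroblast gene LUM. The markers separate both OV-L1-FGGY groups from the other pair, and their part in the differences between those pairs was not tested.

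The NVR-labelled libraries held less RNA of these genes than the control, and ML355 moved single genes in both directions with little change of the sum. Summed over the 39 genes, the level was 1576 to 1608 CPM in the control and 762 to 821 CPM in the NVR-labelled libraries, with no overlap. It was 1955 to 2076 CPM in OV-L1-FGGY DMSO and 1910 to 1956 CPM with ML355, where the highest ML355 library lay just above the lowest vehicle library. In bulk RNA, fewer cells that transcribe a gene and less of its RNA per cell cannot be told apart.

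Against the control, 32 of the 39 genes were lower in the NVR-labelled libraries (edgeR quasi-likelihood test, threshold of 0.01 on the Benjamini-Hochberg adjusted p), where 15.3% of all genes tested were lower. None of the 39 passed as higher by edgeR, DESeq2 or voom, with 1 at an unadjusted p under 0.05, where 14.5% of all genes were higher. Scaled by library size alone, 18.0% of all genes were lower and 10.2% higher, and 33 of the 39 were lower. The median log2 fold change was -1.41 over the 39 genes and 0.00 over all genes. The libraries of the groups did not overlap for 37 of the 39, beside 52.9% of all genes. Against OV-L1-FGGY DMSO 32 were lower and 4 higher, beside 35.4% and 38.2% of all genes, with a median log2 fold change of -1.88 where that of all genes was 0.08. Markers of cycling cells moved with these genes, as 11 of 12 were lower than in the control and none passed as higher. Their summed level was 855 to 976 CPM in the NVR-labelled libraries and 1947 to 2063 CPM in the control, and their part in the result was not tested.

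After ML355 10 of the 39 genes were lower and 8 higher, near the 23.5% of all genes that were lower and the 21.3% that were higher. The median log2 fold change was -0.00 over the 39 genes and 0.00 over all genes. The libraries of the groups did not overlap for 29 of the 39, beside 62.6% of all genes. The 10 lower genes were lower in each fit with a library left out. The 8 higher genes became 4 with library size alone as the scaling, and 4, 5 and 5 without OV-L1-FGGY DMSO replicate 1, 2 and 3, where calls were lost among EXO1, RAD54B, XRCC3 and CHEK2. Of the cycling markers, 5 of 12 were higher after ML355 and 3 lower, at 2528 to 2727 CPM in sum against 1811 to 2007 CPM in OV-L1-FGGY DMSO.

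**Figure D1:**
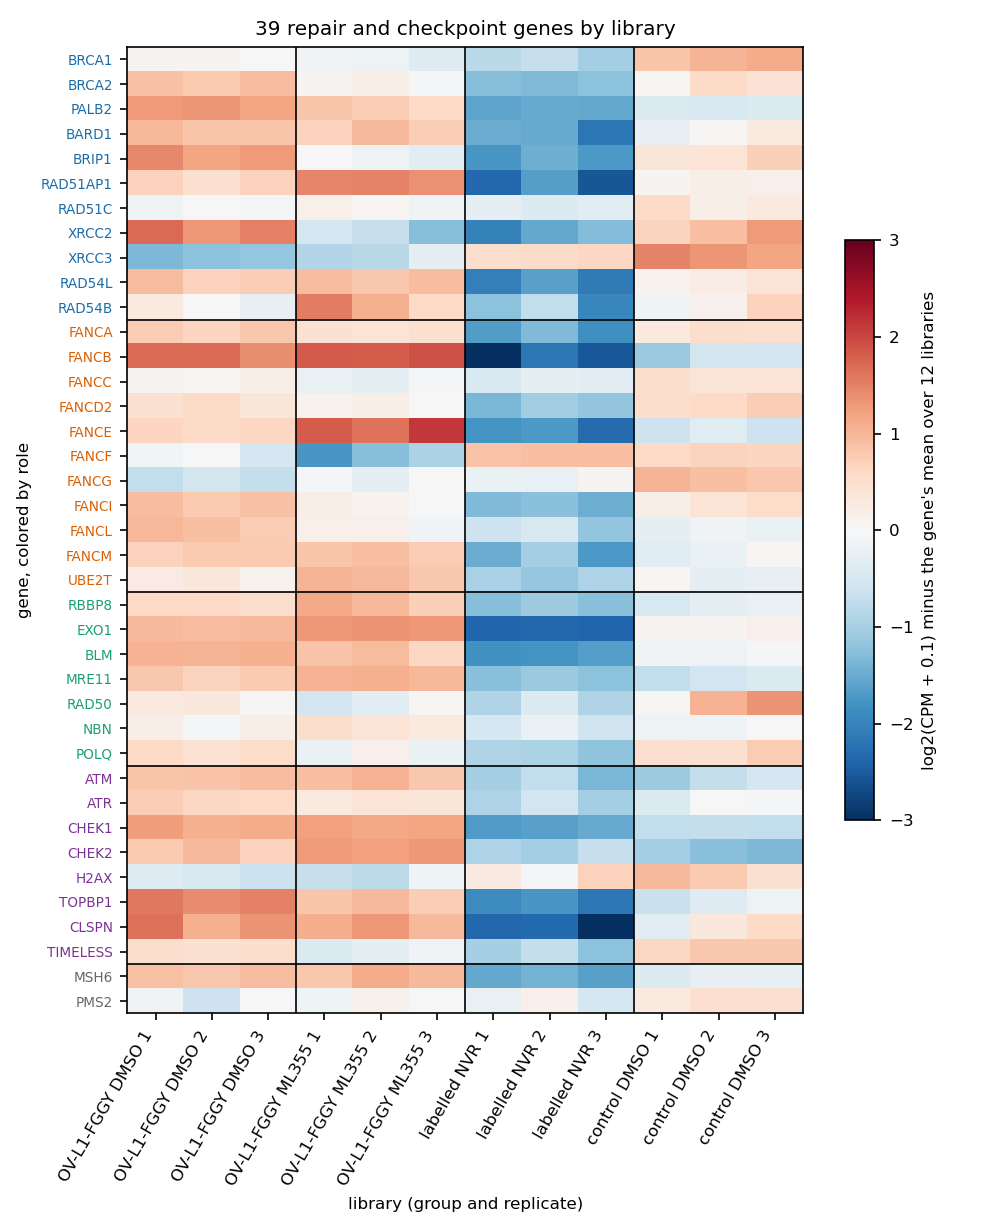
Level of the 39 genes (rows, colored by role) in each of the 12 libraries (columns), as log2(CPM + 0.1) minus the gene's mean over the libraries, with blue for low and red for high. The 3 columns of the NVR-labelled libraries are blue for most genes, where 32 of the 39 were lower than in the control.

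The group of genes that load or handle the recombinase held the largest falls after ML355, those of XRCC2 and BRIP1. XRCC2 (chr7:152644776-152676193, GRCh38), a paralog of the recombinase that holds its filament on DNA, was at 36.9, 28.2 and 32.4 CPM in OV-L1-FGGY DMSO, 7.79, 7.004 and 4.62 with ML355, 2.702, 3.81 and 4.499 in the NVR-labelled libraries and 17.96, 21.4 and 27.5 in the control. All 3 ML355 libraries and all 3 labelled NVR lay below every vehicle library. XRCC2 was 5.01-fold lower after ML355 (log2 fold change -2.33, SE 0.22, adjusted p = 2.14e-07) and 6.08-fold lower in the NVR-labelled libraries than in the control (log2 fold change -2.60, SE 0.22, adjusted p = 3.26e-07). BRIP1 (chr17:61679139-61863559), a helicase that binds BRCA1 and is also a Fanconi gene, was at 30, 25.4 and 26.9 CPM in OV-L1-FGGY DMSO, 11.1, 9.94 and 8.93 with ML355, 3.202, 3.92 and 3.29 in the NVR-labelled libraries and 14.3, 14.8 and 18.3 in the control. It showed the same order of groups, and was 2.74-fold lower after ML355 (log2 fold change -1.46, SE 0.15, adjusted p = 4.85e-07) and 4.53-fold lower in the NVR-labelled libraries (log2 fold change -2.18, SE 0.16, adjusted p = 5.49e-08).

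RAD51AP1 (chr12:4538798-4560047), a partner that stimulates strand exchange, moved the other way with ML355. It was at 29.3, 25.5 and 29.4 CPM (OV-L1-FGGY DMSO), 50.3, 51.4 and 47.5 CPM (ML355), 3.45, 5.702 and 2.96 CPM (NVR-labelled) and 19.1, 20.6 and 20.1 CPM (control). Every ML355 library lay above and every NVR-labelled library below both vehicle groups. The ML355 difference was 1.77-fold (log2 fold change 0.82, SE 0.16, adjusted p = 3.52e-04), and the NVR-labelled libraries were 4.84-fold below the control (log2 fold change -2.28, SE 0.18, adjusted p = 1.35e-07). RAD54B, a motor protein that remodels recombination intermediates, gave 2.47, 1.998 and 1.66 CPM (OV-L1-FGGY DMSO), 5.96, 4.33 and 3.05 CPM (ML355), 0.801, 1.15 and 0.439 CPM (NVR-labelled) and 1.81, 2.19 and 3.299 CPM (control). It was among the least abundant of the 39, down to 8 counts in a library, and its rise after ML355 (log2 fold change 1.13, SE 0.33, adjusted p = 0.0084) did not pass the threshold in 10 of the alternative fits. Its exons share 3511 bases with FSBP, so its counts are uncertain. XRCC3, which acts with RAD51C late in recombination, gave 8.66, 9.52 and 9.98 CPM (OV-L1-FGGY DMSO), 12.2, 12.5 and 18.3 CPM (ML355), 32.02, 33.4 and 34.3 CPM (NVR-labelled) and 62.3, 56.2 and 51.2 CPM (control). Its groups formed a ladder with the control highest and OV-L1-FGGY DMSO lowest. XRCC3 rose after ML355 (log2 fold change 0.61, SE 0.15, adjusted p = 0.0031), was lower in the NVR-labelled libraries than in the control (log2 fold change -0.77, SE 0.14, adjusted p = 4.49e-04) but higher there than in OV-L1-FGGY DMSO (log2 fold change 1.82, SE 0.15, adjusted p = 1.22e-08). Exons of XRCC3 overlap KLC1 on the opposite strand, and since strand-specific counting is not stated, reads of the 2 genes cannot be told apart in the overlap.

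BRCA1 (chr17:43044295-43170245), a ubiquitin ligase subunit that steers breaks toward recombination, was at 37.7, 37.6 and 35.1 CPM in OV-L1-FGGY DMSO, 33.2, 32.1 and 27.3 with ML355, 20.3, 21.9 and 17.4 in the NVR-labelled libraries and 63.2, 72.3 and 77.3 in the control. It was highest in the control, and the NVR-labelled libraries were the lowest of the 4 groups. It was 3.56-fold lower in the NVR-labelled libraries than in the control (log2 fold change -1.83, SE 0.12, adjusted p = 2.90e-08), and its difference after ML355 did not pass (log2 fold change -0.25, SE 0.12, adjusted p = 0.0877). BRCA2, which delivers the recombinase to single strands, ran from 15.3 to 16.6 CPM in OV-L1-FGGY DMSO, 8.36 to 9.99 CPM with ML355, 3.44 to 3.68 CPM in the NVR-labelled libraries and 9.002 to 13.2 CPM in the control. It was lower with ML355 and in the NVR-labelled libraries, as was PALB2, the bridge between BRCA1 and BRCA2, with log2 fold changes of -0.80 and -0.54 after ML355 and -1.67 and -1.13 against the control. BARD1, the partner of BRCA1, and RAD54L, a motor protein of strand exchange, were lower in the NVR-labelled libraries than in the control, with log2 fold changes of -1.74 and -2.20, and after ML355 their log2 fold changes were -0.08 and 0.11 with no call. RAD51C, a further paralog of the recombinase, had the smallest fold changes of this group when ML355 and the NVR-labelled libraries are added up, with 32.5, 36.4 and 34.6 CPM (OV-L1-FGGY DMSO), 39.96, 37.6 and 33.8 CPM (ML355), 30.02, 27.1 and 29.1 CPM (NVR-labelled) and 54.9, 40.98 and 44.4 CPM (control). It was lower in the NVR-labelled libraries than in the control (log2 fold change -0.70, SE 0.12, adjusted p = 2.88e-04), with no call against OV-L1-FGGY DMSO (-0.26) or after ML355 (0.11). In all, 11 of the 11 loading genes were lower in the NVR-labelled libraries than in the control, and after ML355 4 were lower and 3 higher.

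**Figure D2:**
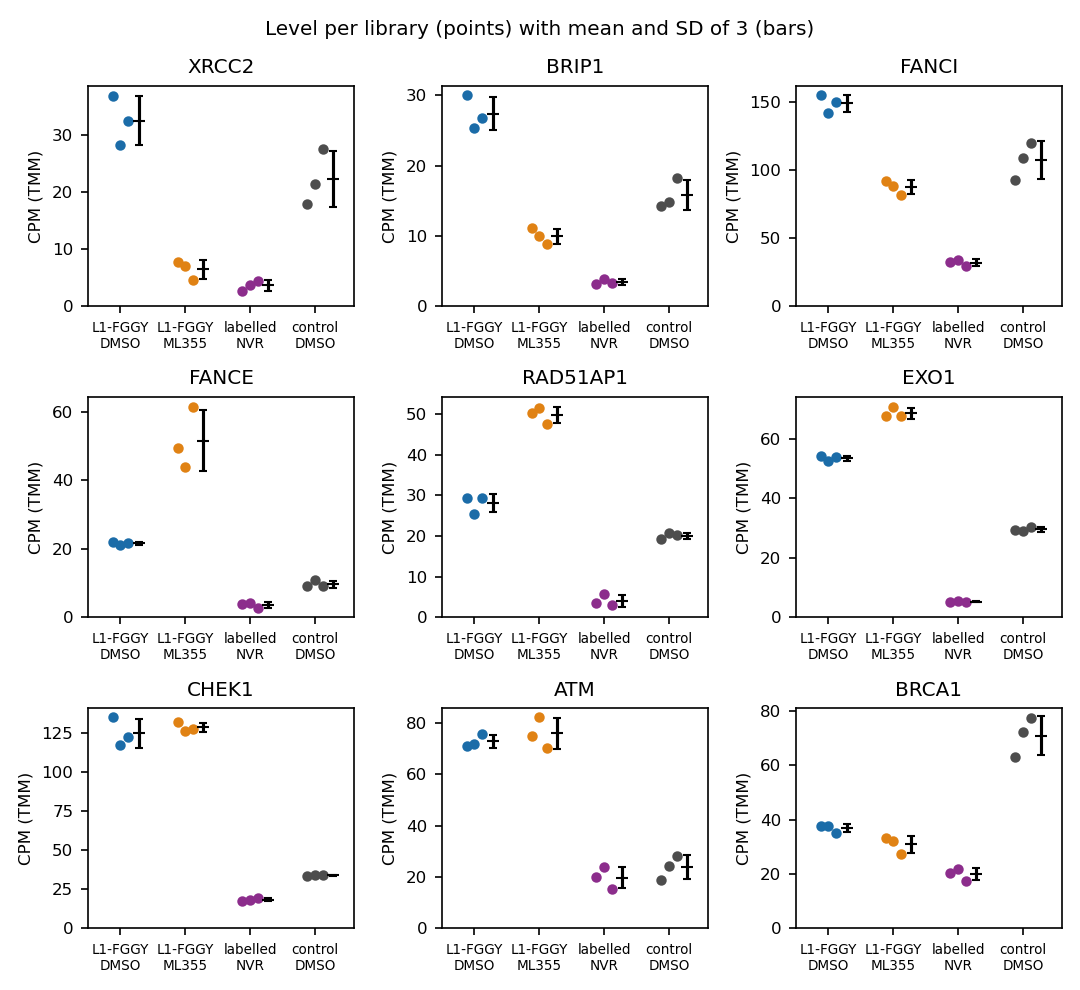
Level in CPM of 9 of the 39 genes, with a point for each library and, beside the points, the mean and SD of the 3 libraries of each group. XRCC2, BRIP1 and FANCI are low with ML355 and in the NVR-labelled libraries, while FANCE, RAD51AP1 and EXO1 are highest with ML355 and lowest in the NVR-labelled libraries.

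Of the 11 Fanconi genes 3 were lower and 3 higher after ML355, or 27.3% each way, beside 23.5% and 21.3% of all genes. FANCE (chr6:35452338-35467104), the core complex subunit that binds FANCD2, was at 21.97, 21.1 and 21.7 CPM in OV-L1-FGGY DMSO, 49.4, 43.9 and 61.4 with ML355, 3.95, 4.18 and 2.74 in the NVR-labelled libraries and 9.13, 10.9 and 9.13 in the control. Each ML355 library was above each library of the other groups. FANCE was 2.39-fold higher after ML355 (log2 fold change 1.26, SE 0.15, adjusted p = 3.48e-06) and 2.65-fold lower in the NVR-labelled libraries than in the control (log2 fold change -1.41, SE 0.17, adjusted p = 1.15e-05). UBE2T (chr1:202331544-202341984), the conjugating enzyme of the pathway, was at 79.4, 84.1 and 72.2 CPM in OV-L1-FGGY DMSO, 136, 131 and 118 with ML355, 33.8, 29.8 and 35.3 in the NVR-labelled libraries and 69.9, 55.7 and 56.05 in the control. It was highest with ML355 (log2 fold change 0.71, SE 0.12, adjusted p = 9.44e-05) and lowest in the NVR-labelled libraries (log2 fold change -0.88, SE 0.12, adjusted p = 3.28e-05 against the control). FANCG, a scaffold of the core complex, was at 26.8, 30.1 and 27.3 CPM (OV-L1-FGGY DMSO), 42.4, 36.1 and 43.8 CPM (ML355), 38.98, 38.1 and 47.02 CPM (NVR-labelled) and 90.5, 82.8 and 78.1 CPM (control). It rose after ML355 (log2 fold change 0.54, SE 0.12, adjusted p = 0.00118) and was lower in the NVR-labelled libraries than in the control (log2 fold change -1.02, SE 0.12, adjusted p = 6.61e-06), yet higher there than in OV-L1-FGGY DMSO (log2 fold change 0.56, SE 0.12, adjusted p = 4.52e-04), so its sign turned with the baseline. The last of these calls was lost with library size alone as the scaling.

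FANCI (chr15:89243945-89317261), which with FANCD2 forms the pair that is ubiquitylated, was at 155, 142 and 149.8 CPM in OV-L1-FGGY DMSO, 92.3, 88.4 and 81.7 with ML355, 32.5, 34.2 and 29.5 in the NVR-labelled libraries and 92.8, 109 and 120.2 in the control. It fell in both, by 1.702-fold after ML355 (log2 fold change -0.77, SE 0.11, adjusted p = 2.52e-05) and by 3.34-fold in the NVR-labelled libraries against the control (log2 fold change -1.74, SE 0.12, adjusted p = 2.24e-08). FANCD2 was at 29.7, 31.97 and 27.5 CPM (OV-L1-FGGY DMSO), 23.1, 24.7 and 21.8 CPM (ML355), 8.31, 10.4 and 9.33 CPM (NVR-labelled) and 30.9, 32.7 and 36.1 CPM (control). It was lower in the NVR-labelled libraries than in the control (log2 fold change -1.83, SE 0.13, adjusted p = 3.33e-08), whereas the ML355 difference did not pass (log2 fold change -0.36, SE 0.12, adjusted p = 0.0186) although its groups did not overlap. A pseudogene of FANCD2 is annotated in GENCODE 44, as for BRCA1, RAD51AP1, MRE11 and RBBP8. FANCA, the core complex subunit that binds FANCG, was at 89.5, 83.1 and 92.5 CPM (OV-L1-FGGY DMSO), 72.4, 70.5 and 74.7 CPM (ML355), 16.7, 20.99 and 14.7 CPM (NVR-labelled) and 64.7, 76.2 and 75.1 CPM (control). It was 4.11-fold lower in the NVR-labelled libraries (log2 fold change -2.04, SE 0.13, adjusted p = 1.63e-08) with no call after ML355 (log2 fold change -0.29, SE 0.12, adjusted p = 0.058). Exons of FANCA share 2409 bases with ZNF276 on the opposite strand, so its counts are uncertain where strand-specific counting is not stated.

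FANCF and FANCL fell after ML355 without a call in the NVR-labelled libraries against the control. FANCF (chr11:22622533-22625823), a small adaptor of the core complex with a single exon, was at 10.4, 11.2 and 7.76 CPM (OV-L1-FGGY DMSO), 3.25, 4.53 and 5.67 CPM (ML355), 20.2, 20.7 and 20.7 CPM (NVR-labelled) and 16.99, 17.6 and 17.4 CPM (control). It was lowest with ML355 (log2 fold change -1.13, SE 0.19, adjusted p = 8.98e-05), and all NVR-labelled libraries lay above those of the control with no call (log2 fold change 0.24, SE 0.17, adjusted p = 0.253). FANCL, the ubiquitin ligase of the complex, was at 41.9, 39.2 and 35.5 CPM (OV-L1-FGGY DMSO), 23.3, 23.4 and 19.5 CPM (ML355), 13.5, 14.8 and 9.22 CPM (NVR-labelled) and 17.2, 19.3 and 18.3 CPM (control). It fell with ML355 (log2 fold change -0.82, SE 0.15, adjusted p = 2.52e-04), and the NVR-labelled libraries, all below the control, were just outside the threshold (log2 fold change -0.54, SE 0.16, adjusted p = 0.011) and passed it under 4 alternatives. FANCB, an X-linked subunit, gave 20.5, 20.4 and 16.5 CPM (OV-L1-FGGY DMSO), 22.6, 22.1 and 23.7 CPM (ML355), 0.5004, 1.296 and 0.988 CPM (NVR-labelled) and 2.82, 4.18 and 4.14 CPM (control). Both OV-L1-FGGY groups were far above the other pair, with 5.13-fold between the vehicle groups (log2 fold change 2.36, SE 0.20, adjusted p = 2.42e-08). FANCC, at 21.1, 20.7 and 22.3 CPM (OV-L1-FGGY DMSO), 17.1, 16.1 and 19.02 CPM (ML355), 14.3, 16.2 and 15.8 CPM (NVR-labelled) and 28.7, 26.1 and 26.6 CPM (control), had the smallest fold changes of the Fanconi genes when both are added up (-0.30 after ML355 with no call and -0.81 against the control, which passed). FANCM, the translocase that anchors the complex on DNA, was lower in the NVR-labelled libraries (-1.22) and at 0.07 after ML355 with no call. Altogether 9 of 11 Fanconi genes were lower in the NVR-labelled libraries than in the control, beside 15.3% of all genes.

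Upstream sequences are shown for XRCC2 and BRIP1, with the smallest adjusted p among the falls after ML355, for FANCE and UBE2T, with the smallest adjusted p among the rises, and for FANCD2, among those with the smallest adjusted p in the NVR-labelled libraries. They come from RefSeq promoters on GRCh38.p14, which list 36 of the 39 genes, and are 150 bases each, 5′ to 3′ on the gene's strand, placed before the first exon of the gene in GENCODE 44. EXO1, FANCA and BRCA1 ranked above FANCD2, but fewer than 150 of their listed bases lay before the first exon, and FANCI is not in the table. Capitals mark CCAAT (read on the other strand as ATTGG) and TTTGAA, a spelling of the CHR element of cell cycle genes.
XRCC2 (chr7:152676194-152676343, minus strand): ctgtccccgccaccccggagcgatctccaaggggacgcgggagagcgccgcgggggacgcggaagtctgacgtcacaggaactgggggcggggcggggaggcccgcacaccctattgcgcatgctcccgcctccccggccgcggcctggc
BRIP1 (chr17:61863560-61863709, minus strand): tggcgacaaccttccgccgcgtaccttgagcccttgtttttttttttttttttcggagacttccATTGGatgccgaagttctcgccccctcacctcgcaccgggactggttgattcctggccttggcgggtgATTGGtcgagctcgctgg
FANCE (chr6:35452188-35452337, plus strand): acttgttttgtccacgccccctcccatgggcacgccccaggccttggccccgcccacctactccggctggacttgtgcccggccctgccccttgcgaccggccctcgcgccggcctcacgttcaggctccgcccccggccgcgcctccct
UBE2T (chr1:202341985-202342134, minus strand): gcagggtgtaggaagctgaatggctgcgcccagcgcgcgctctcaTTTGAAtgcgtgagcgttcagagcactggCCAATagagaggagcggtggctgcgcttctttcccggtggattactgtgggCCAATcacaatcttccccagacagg
FANCD2 (chr3:10026220-10026369, plus strand): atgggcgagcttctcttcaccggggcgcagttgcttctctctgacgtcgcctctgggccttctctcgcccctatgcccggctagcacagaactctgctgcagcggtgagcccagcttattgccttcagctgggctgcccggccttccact

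BRIP1, which fell after ML355, and UBE2T, which rose, both hold CCAAT in these bases, and XRCC2, FANCE and FANCD2 hold none of the motifs searched. In the 250 bases before the start, read on both strands, 20 of the 36 listed genes (55.6%) had CCAAT in at least 1 promoter, against 37.0% of all genes in the table. The E2F spellings TTTGGCGC, TTTCCCGC, TTTGCCGC and TTTCGCGC were in 3 of 36 (FANCA, FANCC and PMS2, 8.33%), against 3.40% of all genes. The CHR spellings TTTGAA and TTCGAA were in 6 of 36 (16.7%), against 17.2%. Of the 20 genes with CCAAT, 15 were lower in the NVR-labelled libraries than in the control, as were 15 of the 16 without it. After ML355, 4 of the 20 were lower and 4 higher, and 5 of the 16 lower and 3 higher. A match in these letters is not a bound site, and binding was not measured.

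The end resection genes were lower in the NVR-labelled libraries than in the control in 6 of 7 cases, beside 15.3% of all genes. After ML355 1 was lower and 1 higher, or 14.3% each way, beside 23.5% and 21.3% of all genes. EXO1 (chr1:241847967-241895148), the nuclease of long-range resection, was at 54.1, 52.6 and 54.02 CPM in OV-L1-FGGY DMSO, 67.6, 70.9 and 67.6 with ML355, 5.204, 5.33 and 5.27 in the NVR-labelled libraries and 29.4, 29.01 and 30.5 in the control. Its libraries agreed closely within each group and no groups overlapped. EXO1 was 5.61-fold lower in the NVR-labelled libraries than in the control (log2 fold change -2.49, SE 0.10, adjusted p = 3.68e-10), the smallest adjusted p of the 39 in that comparison. It rose 1.28-fold after ML355 (log2 fold change 0.36, SE 0.09, adjusted p = 0.00349), a call that was lost in 8 of the alternative fits. BLM, the helicase deficient in Bloom syndrome, was at 50.6, 50.4 and 51.9 CPM (OV-L1-FGGY DMSO), 45.2, 47.5 and 38.2 CPM (ML355), 6.96, 7.11 and 7.85 CPM (NVR-labelled) and 22.5, 22.2 and 24.3 CPM (control). It was lower in the NVR-labelled libraries (log2 fold change -1.66, SE 0.12, adjusted p = 5.10e-08) and its difference after ML355 did not pass (log2 fold change -0.22, SE 0.11, adjusted p = 0.0902). POLQ, the polymerase of an end joining route that needs resected ends, was the member lower after ML355 (-0.61) and was also lower in the NVR-labelled libraries (-1.61). RBBP8, which starts resection, was lower in the NVR-labelled libraries (-0.87) and just outside the threshold after ML355 (log2 fold change 0.40, SE 0.12, adjusted p = 0.0107).

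MRE11, RAD50 and NBN form a complex that binds broken ends. In the NVR-labelled libraries 2 of the 3 genes of this complex were lower than in the control, beside 15.3% of all genes. MRE11, its nuclease, was at 70.95, 64.2 and 69.5 CPM (OV-L1-FGGY DMSO), 83.1, 84.6 and 80.3 CPM (ML355), 16.8, 18.6 and 17.1 CPM (NVR-labelled) and 24.3, 26.9 and 29.7 CPM (control). It was lower in the NVR-labelled libraries than in the control by 1.54-fold (log2 fold change -0.62, SE 0.11, adjusted p = 2.64e-04). NBN, the subunit that recruits ATM, was at 48.6, 40.6 and 49.1 CPM (OV-L1-FGGY DMSO), 61.3, 56.6 and 52.1 CPM (ML355), 29.7, 37.2 and 27.9 CPM (NVR-labelled) and 38.4, 39.1 and 43.04 CPM (control). It had no call after ML355, nor in the NVR-labelled libraries against the control (log2 fold change -0.34, SE 0.13, adjusted p = 0.0385). Against OV-L1-FGGY DMSO it was lower in the NVR-labelled libraries (log2 fold change -0.54, SE 0.13, adjusted p = 9.84e-04). RAD50, its ATPase, was at 3.17 to 3.89 CPM in OV-L1-FGGY DMSO, 2.02 to 3.15 CPM with ML355, 1.59 to 2.296 CPM in the NVR-labelled libraries and 3.15 to 8.06 CPM in the control. RAD50 was lower in the NVR-labelled libraries (log2 fold change -1.67, SE 0.31, adjusted p = 4.88e-04). In GENCODE 44 its exons share 8124 bases with another gene on the same strand, and how reads of both were counted is not given, so its low level is uncertain.

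Of the checkpoint genes 5 of 8 were lower in the NVR-labelled libraries than in the control, beside 15.3% of all genes. CLSPN (chr1:35720218-35769978), the adaptor through which ATR activates CHEK1, had the largest log2 fold change of the 39 in that comparison, from 10.5 to 20.02 CPM in the control to 1.26 to 2.56 CPM (log2 fold change -2.87, SE 0.27, adjusted p = 7.27e-07). After ML355 it was at 25.9 to 32.8 CPM against 27.8 to 41.8 CPM in its vehicle group, which overlap. TIMELESS (chr12:56416363-56449426), a fork protection protein, was at 114, 109 and 115 CPM (OV-L1-FGGY DMSO), 58.7, 66.1 and 73.4 CPM (ML355), 40.03, 48.2 and 33.7 CPM (NVR-labelled) and 121, 139.8 and 139 CPM (control). It was lower after ML355 (log2 fold change -0.77, SE 0.13, adjusted p = 9.47e-05) and in the NVR-labelled libraries (log2 fold change -1.71, SE 0.13, adjusted p = 1.03e-07), with no overlap in either. TOPBP1, the activator of ATR, was lower in both as well, with log2 fold changes of -0.66 and -1.54. CHEK1, the kinase that ATR activates, was at 117 to 135 CPM in OV-L1-FGGY DMSO and 126 to 132 CPM with ML355, which overlap, and was lower in the NVR-labelled libraries at 17.4 to 19.7 CPM than in the control at 33.7 to 34.1 CPM (log2 fold change -0.88, SE 0.10, adjusted p = 5.46e-06). ATR was lower in the NVR-labelled libraries (log2 fold change -0.68, SE 0.14, adjusted p = 0.0014), a call lost in 3 alternative fits, and part of its exons lie opposite a pseudogene.

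ATM, CHEK2 and H2AX, which act at double-strand breaks, were the checkpoint genes without a call against the control. Against OV-L1-FGGY DMSO, ATM (-1.88) and CHEK2 (-1.70) were lower in the NVR-labelled libraries and H2AX (0.84) higher, on the log2 scale. ATM was at 71.01, 71.8 and 75.8 CPM in OV-L1-FGGY DMSO, 74.95, 82.4 and 70.2 with ML355, 19.9, 23.8 and 15.4 in the NVR-labelled libraries and 18.97, 24.2 and 28.1 in the control. The OV-L1-FGGY groups overlapped each other, as did the other pair (log2 fold change 0.06, SE 0.15, adjusted p = 0.779 after ML355 and log2 fold change -0.26, SE 0.16, adjusted p = 0.188 against the control). CHEK2 (chr22:28687743-28742422), the kinase that ATM activates, was at 53.5, 61.3 and 50.1 CPM (OV-L1-FGGY DMSO), 75.2, 73.3 and 76.2 CPM (ML355), 16.4, 15.4 and 19.1 CPM (NVR-labelled) and 15.3, 13.1 and 12.2 CPM (control). It rose after ML355 (log2 fold change 0.45, SE 0.12, adjusted p = 0.00448), a call lost in 5 alternative fits, and in the NVR-labelled libraries it lay above the control with no call (log2 fold change 0.32, SE 0.13, adjusted p = 0.0485). H2AX, the histone that is phosphorylated around breaks, was at 170.5 to 286 CPM in the NVR-labelled libraries and 244 to 347 CPM in the control, which overlap (log2 fold change -0.42, SE 0.19, adjusted p = 0.09). Pseudogenes of CHEK2 are annotated in GENCODE 44, and how reads with several positions were counted is not given in the sources used here.

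The mismatch repair pair parted. MSH6, which recognizes mispaired bases, was at 226, 216 and 232 CPM (OV-L1-FGGY DMSO), 214, 267 and 239 CPM (ML355), 41.98, 45.7 and 39.5 CPM (NVR-labelled) and 92.5, 103 and 104 CPM (control). It was 2.35-fold lower in the NVR-labelled libraries than in the control (log2 fold change -1.23, SE 0.11, adjusted p = 4.32e-07), and at 0.09 on the log2 scale after ML355 with no call. Its exons share 4022 bases with FBXO11 on the opposite strand. Strand-specific counting is not stated, so the MSH6 counts are uncertain. PMS2, part of the endonuclease that acts downstream, was at 11.2, 7.89 and 12.3 CPM (OV-L1-FGGY DMSO), 11.1, 13.3 and 12.1 CPM (ML355), 10.5, 13.4 and 8.45 CPM (NVR-labelled) and 14.98, 17.2 and 16.8 CPM (control), with no call in either inhibitor comparison (log2 fold change -0.59, SE 0.18, adjusted p = 0.0153 against the control). PMS2 has many annotated pseudogenes that resemble it closely, so its value is uncertain.

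The effect of ML355 and that of the NVR-labelled libraries against the control share no library and were compared gene by gene. By their calls, 7 genes were higher after ML355 and lower in the NVR-labelled libraries, namely RAD51AP1, XRCC3, RAD54B, FANCE, FANCG, UBE2T and EXO1. A further 8 were lower in both, namely BRCA2, PALB2, BRIP1, XRCC2, FANCI, POLQ, TOPBP1 and TIMELESS. Of all genes tested 2.86% were in the first class and 4.95% in the second. Another 17, beside 7.44% of all genes, were lower in the NVR-labelled libraries alone, FANCF and FANCL were lower and CHEK2 higher after ML355 alone, and NBN, ATM, H2AX and PMS2 had no call in either. Within the 32 members lower in the NVR-labelled libraries, 7 (21.9%) were higher and 8 lower after ML355, and of all 2723 genes lower there 18.8% were higher and 32.5% lower. A gene called in one and not in the other is not thereby shown to differ, and the difference itself was therefore tested. The difference was negative where the log2 fold change was lower in the NVR-labelled libraries than after ML355. By sign alone it was negative for 37 of the 39 genes and positive for 2. Its median was -0.9958 over the 39 genes and 0.0183 over all genes tested, on the log2 scale. It passed the threshold as negative for 28 of the 39, beside 17.3% of all genes tested. It passed as positive for FANCF alone of the 39 (log2 difference 1.37, SE 0.25, adjusted p = 3.26e-04), beside 16.8% of all genes. The widest differences were those of RAD51AP1 (log2 difference -3.10, SE 0.24, adjusted p = 7.13e-08) and EXO1 (log2 difference -2.85, SE 0.14, adjusted p = 9.99e-10). For XRCC2, the gene with the largest fall after ML355, the difference between the effects was -0.28 (SE 0.31, adjusted p = 0.487), with no call. This test sets different vehicle groups beside each other as well as different inhibitors, at doses that differ. The inhibitor and the vehicle group cannot be told apart in it.

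**Figure D3:**
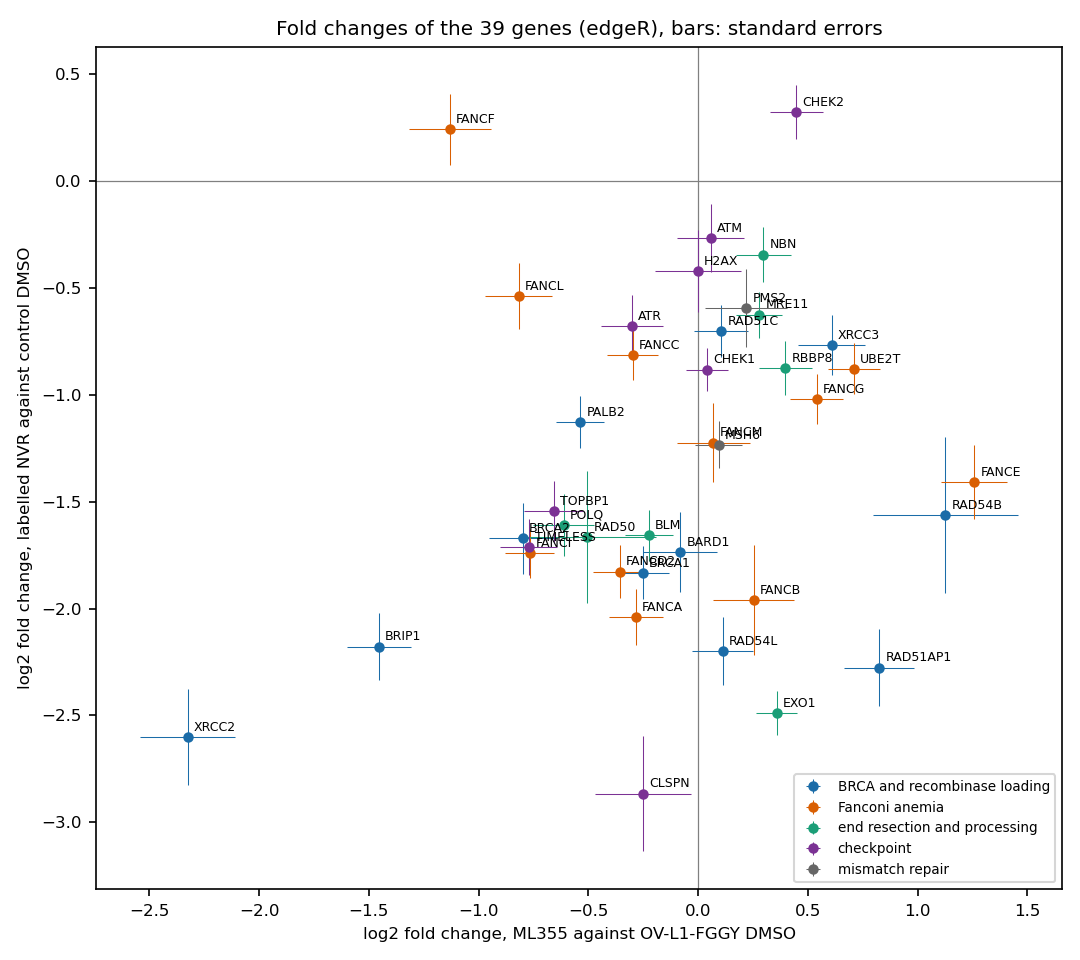
Log2 fold change of each of the 39 genes after ML355 against OV-L1-FGGY DMSO (horizontal axis) and in the NVR-labelled libraries against the control (vertical axis), with standard errors as bars and roles as colors. All points but FANCF and CHEK2 lie below 0 on the vertical axis, while on the horizontal axis they lie on both sides of 0, from XRCC2 at -2.33 to FANCE at 1.26.

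Between the vehicle groups, more of these genes were higher in OV-L1-FGGY DMSO than in the control than were lower. There were 22 of 39 higher, beside 32.5% of all genes tested, and 7 lower, beside 36.2% of all genes. The median log2 fold change was 0.53 over the 39 genes and -0.11 over all genes. XRCC3 had the largest fall (log2 fold change -2.59, SE 0.15, adjusted p = 2.40e-10) and FANCB the largest rise. CHEK2 was 4.06-fold higher (log2 fold change 2.02, SE 0.13, adjusted p = 4.61e-10), MSH6 2.25-fold (log2 fold change 1.17, SE 0.11, adjusted p = 5.58e-08) and MRE11 2.53-fold (log2 fold change 1.34, SE 0.11, adjusted p = 8.58e-09). Of the checkpoint genes 6 of 8 were higher, with CHEK1 at 1.88, TOPBP1 at 1.90 and ATM at 1.62 on the log2 scale. BRCA1 (-0.95), RAD51C (-0.44), FANCF (-0.82), FANCG (-1.58), H2AX (-1.26) and PMS2 (-0.64) were lower beside XRCC3. XRCC3, FANCF, FANCG and H2AX were also the 4 that were higher in the NVR-labelled libraries than in OV-L1-FGGY DMSO, a comparison that shares the OV-L1-FGGY DMSO libraries. Cycling markers were at 1811 to 2007 CPM in OV-L1-FGGY DMSO and 1947 to 2063 CPM in the control, with 3 of 12 higher and 5 lower.

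Each gene was also set beside the tested genes next to it on its chromosome, up to 25 on either side. Between the vehicle groups, 23 of the 39 lay within the quartiles of their neighbors' log2 fold changes, 13 above and 3 below. On chromosome 11, MRE11 at 1.34, ATM at 1.62 and CHEK1 at 1.88 stood beside neighbors with medians of 1.38, 1.24 and 1.18. FANCF and H2AX on the same chromosome were at -0.82 and -1.26 with neighbor medians of 0.77 and 0.56. BRCA1 at -0.95 and FANCG at -1.58 had neighbors at -1.14 and -1.28, whereas CHEK2 at 2.02 and PALB2 at 1.71 had neighbors at -0.76 and -0.34. In the NVR-labelled libraries against the control 34 of the 39 lay below the lower quartile of their neighbors and 5 within the quartiles. After ML355, 24 lay within, 7 above and 8 below. DNA copy number was not measured in these libraries, and its part was not tested.

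**Figure D4:**
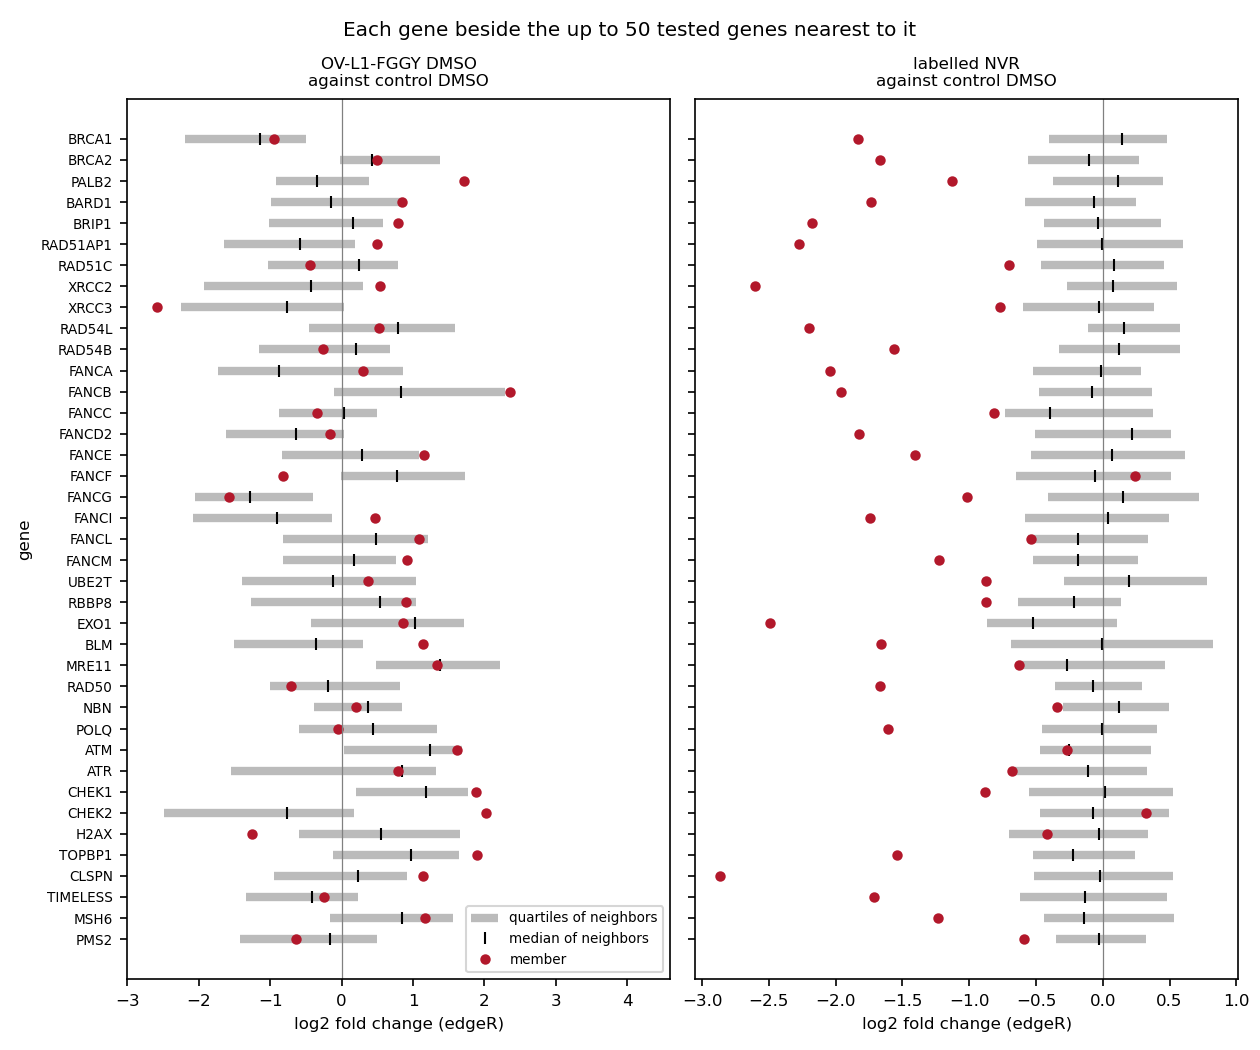
Log2 fold change of each of the 39 genes (red points) with the median (black tick) and quartiles (grey bar) of the up to 50 tested genes nearest to it, for OV-L1-FGGY DMSO against the control on the left and the NVR-labelled libraries against the control on the right. On the left 23 of the 39 points lie on the grey bars, and on the right 34 lie to the left of them.

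Other repair genes gave the setting. A further 63 tested genes belong to recombination, the Fanconi pathway and the checkpoint. In the NVR-labelled libraries 28 were lower than in the control and 3 higher, or 44.4% and 4.76%, beside 15.3% and 14.5% of all genes. Their median log2 fold change was -0.47. Among the lower were CDC25A, a phosphatase that the checkpoint destroys (-2.53), MCM8, a helicase of recombination (-1.60), and USP1, which removes ubiquitin from FANCD2 (-1.74). After ML355 15 of the 63 were lower and 11 higher, or 23.8% and 17.5%, near the 23.5% and 21.3% of all genes. GEN1, a resolvase of joined chromosomes (-2.50), and ETAA1, an activator of ATR (-1.84), were among the lower. HUS1, part of the clamp that recruits TOPBP1 (1.51), was among the higher. Between the vehicle groups 23 of the 63 were higher in OV-L1-FGGY DMSO and 19 lower. These were 36.5% and 30.2%, near the 32.5% and 36.2% of all genes. Against OV-L1-FGGY DMSO, 32 of the 63 were lower in the NVR-labelled libraries and 16 higher, or 50.8% and 25.4%. Of all genes, 35.4% were lower and 38.2% higher in that comparison.

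In the NVR-labelled libraries the other repair lists had medians nearer to 0 against the control. Of 12 tested genes of non-homologous end joining 4 were lower and the other 8 had no call, among the lower XRCC5 (-0.78), which binds broken ends, and PRKDC (-1.21), the kinase it recruits. Of 19 nucleotide excision repair genes 2 were lower and 4 higher. Of 20 base excision repair genes 6 were lower and 2 higher, among them LIG1 (-1.62) and FEN1 (-1.67), which also process Okazaki fragments. Shares lower were 33.3%, 10.5% and 30.0% for the 3 lists, beside 15.3% of all genes. Shares higher were 21.05% and 10.0% for the 2 excision lists, beside 14.5% of all genes. The medians were -0.10, 0.05 and -0.28 for these 3 lists, against -1.41 for the 39 genes. After ML355 5 of 12 end joining genes were higher and 3 lower, 8 of 19 nucleotide excision genes higher and 4 lower, and 9 of 20 base excision genes higher and 6 lower, beside 21.3% of all genes higher and 23.5% lower. Between the vehicle groups, 2 of the 12 were higher and 5 lower, 8 of the 19 higher and 8 lower, and 7 of the 20 higher and 8 lower, beside 32.5% of all genes higher and 36.2% lower. In the NVR-labelled libraries against OV-L1-FGGY DMSO, 6 of the 12 were lower and 6 higher. Of the 19, 7 were lower and 8 higher, and of the 20, 10 were lower and 7 higher. Of all genes, 35.4% were lower and 38.2% higher there.

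**Figure D5:**
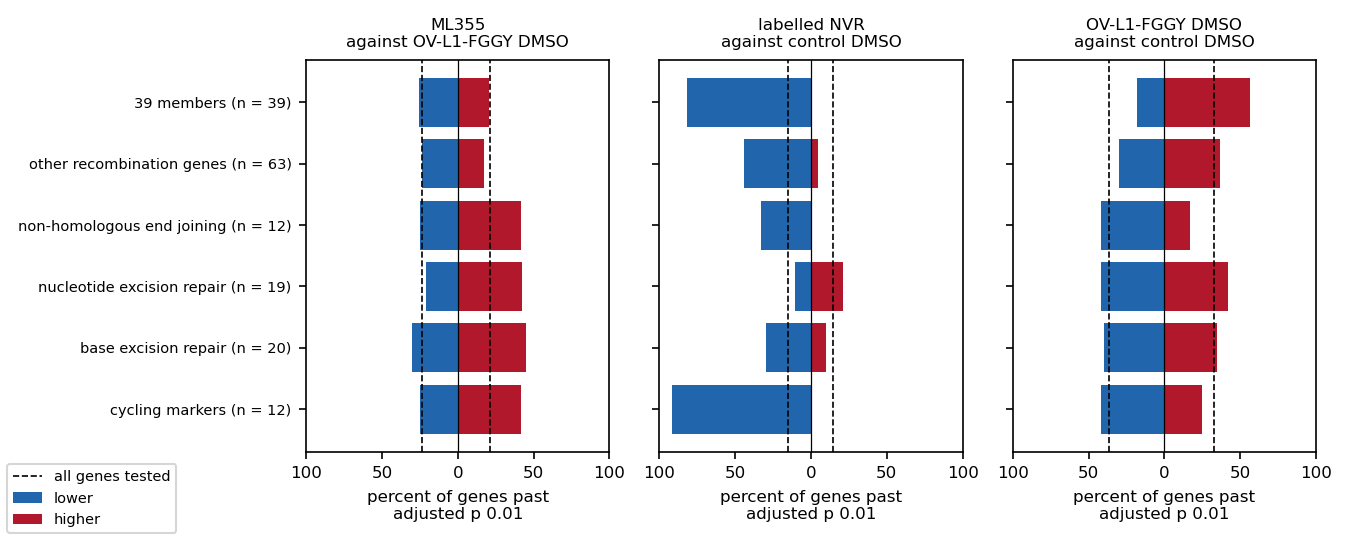
Share of the genes of each list that were lower (blue, to the left) or higher (red, to the right) past an adjusted p of 0.01 in 3 comparisons, with the share over all genes tested as dashed lines. In the middle panel, the NVR-labelled libraries against the control, the 39 members and the cycling markers reach furthest left, at 82.1% and 91.7%.

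Per kilobase of the canonical transcript, the 39 genes spanned a wide range of levels. In the control the lowest were RAD50 and RAD54B at 0.7102 and 0.791 CPM per kb, and the highest UBE2T and H2AX at 68.96 and 187 CPM per kb. In the NVR-labelled libraries RAD50, CLSPN and RAD54B were lowest, at 0.221, 0.247 and 0.259 CPM per kb, each with an SD that spans the others' means. In OV-L1-FGGY DMSO the order at the top changed, with UBE2T at 89.5 and H2AX at 78.3 CPM per kb, and with ML355 UBE2T stood at 146 and H2AX at 78.2 CPM per kb.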

How the data were processed

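RNA-seq counts of 12 H520 libraries in 4 groups of 3 were analysed. The deposited values are the authors' alignments to hg38 (STAR 2.5.3a) counted per gene by HTSeq 0.11.2, raw counts with no normalization. The annotation release, strand setting and treatment of multiply mapped reads are not given in the sources used here, and the library kit differs between the labels and the methods. No count row lacked a gene, and 57532 of 58302 identifiers matched GENCODE 44. Groups come from the sample titles. With edgeR 4.0.16 (R 4.3.3), genes were filtered by filterByExpr, scaled by TMM and tested by the robust quasi-likelihood test over all 12 libraries, with Benjamini-Hochberg adjustment over 17849 genes and a threshold of 0.01. CPM values use TMM-scaled library sizes. DESeq2 1.42.0, voom in limma 3.58.1, other scalings, filters and thresholds, a replicate block and leaving out each library were alternatives. The scripts were tested on simulated counts. The common biological coefficient of variation was 0.143, and 3 counts equal 0.111 to 0.185 CPM, counting error only. The 39 genes and all lists were chosen with earlier results of these data known. Values per library are given for the 6 genes of smallest adjusted p per direction after ML355 and in the NVR-labelled libraries against the control, those called in opposite directions, and, in each role, the largest change between vehicle groups and the smallest over both inhibitors. Motifs were searched in 250 bases before RefSeq starts.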

Additional observations from a re-analysis of the deposited data

How the results depend on the processing

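The counts of genes were within 1.5 times the reported ones under the alternative tools, filters and scalings, apart from the values given here. With a log2 fold change of at least 1 demanded as well, ML355 left 3 lower and 2 higher. The NVR-labelled libraries left 2 higher than OV-L1-FGGY DMSO, and the vehicle groups left 3 lower and 12 higher. The difference between the inhibitor effects then passed as negative for 18. With an adjusted p under 0.05, 1 gene (CHEK2) was higher in the NVR-labelled libraries than in the control. Scaled by library size alone, 4 were higher after ML355, and the medians of all genes shifted to -0.13, -0.16 and -0.15 for ML355, for the NVR-labelled libraries against OV-L1-FGGY DMSO and for them against the control. With 1 library left out at a time, the higher genes after ML355 ranged from 4 to 9 and the lower were 10. The NVR-labelled libraries then gave 30 to 33 lower against OV-L1-FGGY DMSO and 30 to 35 against the control. The vehicle groups gave 5 to 8 lower and 19 to 23 higher, and the difference of effects passed as negative for 25 to 29. The median over the 39 genes after ML355, -0.0018, was 0.0114 with DESeq2 and with its size factors, 0.0053 with only the 2 groups fitted, and -0.0763 to 0.0307 with a library left out (0.0307 without OV-L1-FGGY DMSO replicate 1 and 0.0239 without ML355 replicate 1), so its sign is not fixed. Over single genes, 3696 fits kept the call or its absence, 110 lost the call and 50 gained one. None turned in sign where either fit had a call. Where neither had a call the sign could turn, as for H2AX after ML355 (-0.24 to 0.12 with a library left out). Deviations of same-numbered libraries in the groups compared correlated at -0.354 to 0.170, which shows no clear pairing by number. From 3 libraries a group, these values cannot exclude a pairing. With a replicate block, lower and higher counts were 10 and 7 after ML355, 33 and 4 in the NVR-labelled libraries against OV-L1-FGGY DMSO, 33 and 0 against the control, 7 and 22 between the vehicle groups, and 26 and 1 for the difference of effects. At this depth RAD54B and FANCB, at 8 and 10 counts in their lowest libraries, carry the widest counting error.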
